A study of Homo sapiens with 6 samples.

Results

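The genes described here are 48 interferon-stimulated genes, interferon regulatory factors (IRFs) and interferon receptor genes in T24 cells, an established human bladder carcinoma line. They were taken from a fixed list of gene names, and a gene was measured where at least 1 probe set of the array is annotated to it alone. This held for 47 of the 48, among 18132 genes measured in all. STAT2, a partner of IRF9 in interferon signalling, was not analysed here. The samples were 6 expression arrays: 3 of T24 cells exposed for 48 hours to MAP30, a ribosome-inactivating protein of bitter melon, at 10 µg/ml, and 3 of T24 cells labelled as normal and used as the control. Both groups share the line and a serum-containing medium, and the labels do not say separately what the control cells were given or when they were collected. The labels also do not tell whether arrays of a group stem from different cultures. The p-values therefore rest on array-to-array spread that may be technical.

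Interferons are secreted proteins that put cells into an antiviral state. Type I interferons, such as the product of IFNB1, bind a receptor made of IFNAR1 and IFNAR2, and interferon gamma binds IFNGR1 and IFNGR2. The receptors act through JAK kinases and STAT proteins, and a STAT complex with IRF9 binds the interferon-stimulated response element (ISRE) in the promoters of target genes. Other IRFs act downstream of sensors of foreign RNA and DNA, and some ISRE genes can be switched on by IRF1 or IRF3 without interferon receptors.

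The promoters are shown first because genes that rose and genes that fell carried the same element. RefSeq promoter windows of build GRCh38.p14, from 250 bases before to 50 bases after a transcription start, were available for 37 of the 47 measured genes. They were searched on both strands for the ISRE core GAAANNGAAA, which reads TTTCNNTTTC on the other strand. It was found in 22 of the 37 genes, against 4.38% of the 27305 genes with a window and 3.57% of all 35116 windows. By the calls given below, it was present in 5 of 8 genes that rose, 12 of 20 that fell and 5 of 9 that were not called. The stretches below hold the matches of 4 genes that rose and 4 that fell, written 5′ to 3′ on the gene's strand with the ISRE letters in capitals. Matches that overlap each other run together.
ISG20, rose, chr15:88638922-88638981, plus strand: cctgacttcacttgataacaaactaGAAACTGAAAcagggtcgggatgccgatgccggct
ISG15, rose, chr1:1013362-1013421, plus strand: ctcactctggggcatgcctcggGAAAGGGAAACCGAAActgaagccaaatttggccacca
IFIT5, rose, chr10:89414518-89414577, plus strand: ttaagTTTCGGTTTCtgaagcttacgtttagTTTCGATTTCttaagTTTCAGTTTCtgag
EPSTI1, rose, chr13:42992257-42992316, minus strand: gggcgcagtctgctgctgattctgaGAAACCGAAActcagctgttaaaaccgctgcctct
IFIT1, fell, chr10:89392488-89392547, plus strand: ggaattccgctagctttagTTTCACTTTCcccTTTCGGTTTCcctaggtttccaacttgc
IFITM1, fell, chr11:313992-314051, plus strand: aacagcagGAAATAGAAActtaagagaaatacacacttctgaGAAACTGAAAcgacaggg
BST2, fell, chr19:17405723-17405782, minus strand: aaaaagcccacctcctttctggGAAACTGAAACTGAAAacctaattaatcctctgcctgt
PARP9, fell, chr3:122564307-122564366, minus strand: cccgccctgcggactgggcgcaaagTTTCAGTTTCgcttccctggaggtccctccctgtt

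IFIT5, which rose, had 3 matches within 60 bases, and its neighbour IFIT1, which fell, had 2. The first match lay 45 bases before the start of IFIT5 and 116 bases before that of IFIT1. The element of interferon gamma signalling (GAS), searched as TTCNNNGAA, was present in 3 of 8 genes that rose, 6 of 20 that fell and 2 of 9 not called, against 9.38% of all genes with a window. It overlapped an ISRE match in IFITM1, EPSTI1, IFI27, BST2 and MX1. An NF-kappaB site was present in 2 of 8, 3 of 20 and 5 of 9 of these classes, against 13.3% of all genes. IRF1 and MX1 were the 2 genes that rose and had one. A match describes letters in a window and does not show that a factor bound there.

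With MAP30 the set split. Of the 47 measured genes 12 rose, 23 fell and 12 were not called. The largest rises were GBP2, a guanylate-binding GTPase, at 5.79-fold and ISG20, an RNA exonuclease, at 4.77-fold, and the largest falls were IFIT1, an RNA-binding antiviral protein, at 3.06-fold and IFITM1, a membrane protein that restricts virus entry, at 2.67-fold. A gene was called where limma, fitted over all genes, gave a Benjamini-Hochberg adjusted p under 0.05. Among all genes tested 26.9% were called higher and 30.6% lower, so a count of 12 of 47 higher is close to the background, while 23 of 47 lower is above it. The median log2 fold change of the set was -0.12, beside -0.02 for all genes. Among called genes the median was 0.64 for those that rose and -0.56 for those that fell. A change of at least 2-fold was reached by 2 genes that rose and 5 that fell; among all genes 5.42% rose and 4.13% fell by that much. The MAP30 and control arrays did not overlap for 40 of the 47 genes, against 62.6% of all genes. All 35 called genes were among these 40.

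Values are log2 expression set by the authors relative to each probe set's median over the 6 arrays, so that positive and negative values stand for arrays above and below that median. Expression levels were thereby removed: no gene can be called expressed or silent in T24 cells, levels of different genes cannot be compared, and the cell line label could not be checked on marker levels. In these bulk samples, fewer cells expressing a gene and less RNA per cell cannot be told apart. Over all genes the SD of the difference between arrays was 0.105 to 0.121 within groups and 0.617 to 0.621 between groups. The log2 ratio of 3' over 5' probe sets, a measure of RNA integrity, was higher with MAP30 by 0.158 for ACTB and 0.043 for GAPDH (two-sided exact permutation p = 0.1 for each, the smallest that 3 against 3 arrays allow). These ratios were higher in all MAP30 arrays than in any control array, and their part in the differences given here was not tested.

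**Figure D1:**
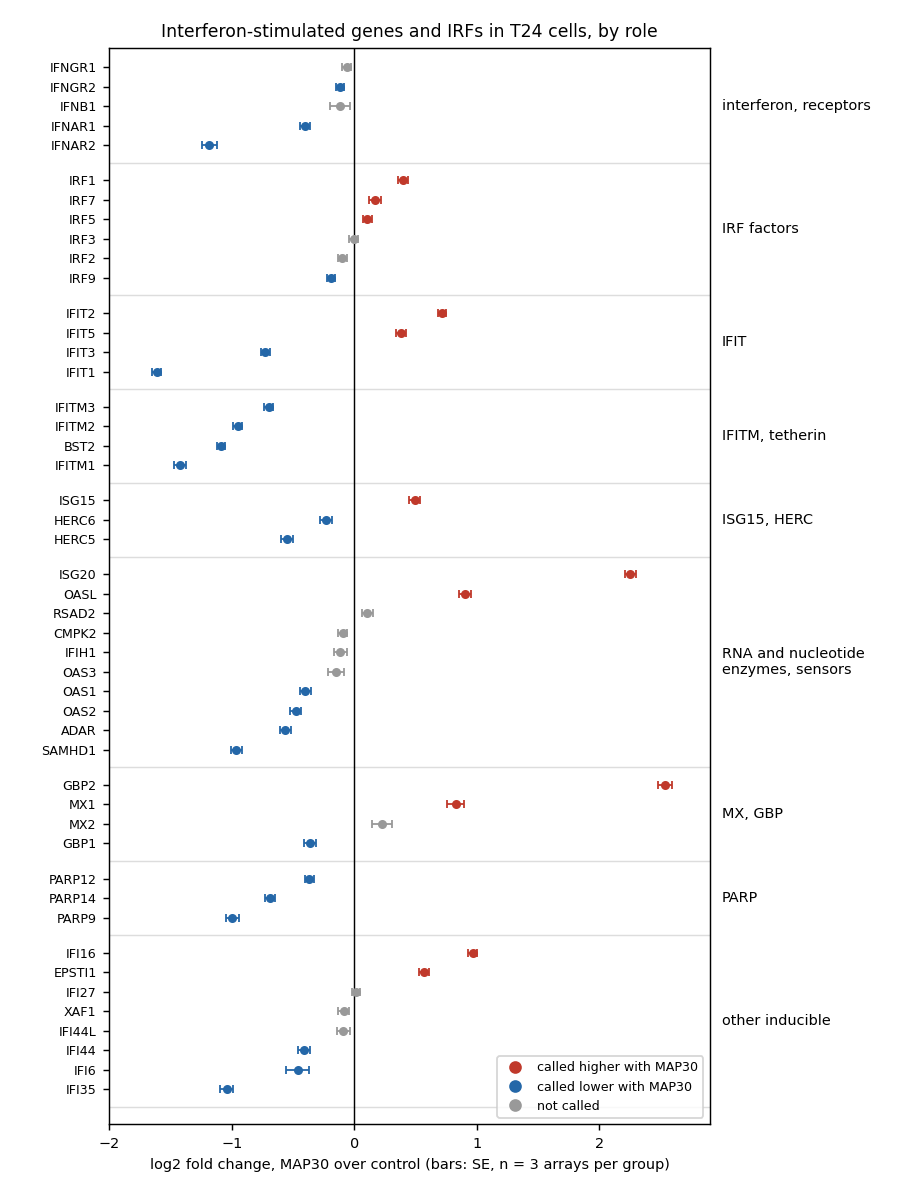
Log2 fold change of MAP30 over control for the 47 measured genes, grouped by role, with the SE (3 arrays per group) as bars and colours for the call. GBP2 and ISG20 stand furthest to the right at 2.53 and 2.25, and IFIT1 and IFITM1 furthest to the left at -1.61 and -1.42.

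The receptor of type I interferons was lower with MAP30 in both of its chains. IFNAR2, the chain with the longer signalling tail, stood at -0.58, -0.73 and -0.51 in the MAP30 arrays, against 0.51, 0.63 and 0.60 in the control arrays. The groups lay far apart, and its log2 fold change was -1.18 ± 0.06 (SE, n = 3 per group), or 2.27-fold lower (limma adjusted p = 1.8e-06). All 3 of its probe sets fell. IFNAR1, the other chain, had -0.21, -0.16 and -0.22 with MAP30, against 0.15, 0.24 and 0.24 in control cells, without overlap. Its fall was smaller, at -0.40 ± 0.04, with 3 of 4 probe sets lower.

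The receptor of interferon gamma moved little. IFNGR2, its signalling chain, had -0.07, -0.05 and -0.03 in the MAP30 arrays, against 0.06, 0.03 and 0.10 in control arrays. This difference of -0.12 ± 0.03 passed (limma adjusted p = 0.0207), but it did not pass without MAP30 replicate 1 (-0.11), control replicate 1 (-0.12) or control replicate 3 (-0.10). IFNGR1, the ligand-binding chain, had -0.01, -0.03 and -0.00 with MAP30, against 0.09, 0.05 and 0.01 in control cells, a difference of -0.06 that was not called. IFNB1, the interferon beta gene, had 0.08, -0.12 and -0.21 with MAP30, against 0.11, -0.06 and 0.06 in control cells. Its groups overlapped, its difference of -0.12 ± 0.08 was not called, and without MAP30 replicate 1 it was called at -0.20.

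The IRF genes changed by small amounts in either direction. IRF1, an activator that is itself induced by interferon gamma and by NF-kappaB, had 0.19, 0.16 and 0.24 with MAP30, against -0.17, -0.18 and -0.25 in control arrays. It had the largest change among the IRFs, 0.40 ± 0.04 (limma adjusted p = 5.82e-05), with 3 of 4 probe sets higher and none lower. IRF9, the DNA-binding partner of the STAT complex, had -0.12, -0.08 and -0.08 with MAP30, against 0.09, 0.09 and 0.10 in control arrays. The groups did not overlap, and it fell by 0.19 on the log2 scale.

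IRF7, the amplifier of type I interferon production, had 0.21, 0.02 and 0.14 with MAP30, against -0.02, -0.08 and -0.04 in control arrays. IRF5, known from Toll-like receptor signalling, had 0.09, 0.04 and 0.03, against -0.05, -0.08 and -0.02. Both were called higher, at 0.17 and 0.11, with MAP30 arrays above all control arrays. These calls were lost in several of the fits that left out 1 array, where the differences were of similar size. IRF7 was not called without MAP30 replicate 1 (0.13) or 3 (0.16), or without control replicate 2 (0.15) or 3 (0.18). IRF5 was not called without MAP30 replicate 1 (0.09) or 2 (0.11), or without control replicate 1 (0.11) or 2 (0.09).

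IRF3, the factor that responds to RNA and DNA sensors and is regulated mainly at the protein level, had -0.03, -0.01 and 0.05 with MAP30, against 0.03, 0.02 and -0.03 in control arrays. None of its 6 probe sets was called, and its difference was -0.00 ± 0.04. IRF2, known mainly as a repressor that competes with IRF1, had -0.01, -0.07 and -0.06 with MAP30, against 0.01, 0.10 and 0.05 in control arrays. The groups did not overlap, but the difference of -0.10 was not called (limma adjusted p = 0.0665).

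**Figure D2:**
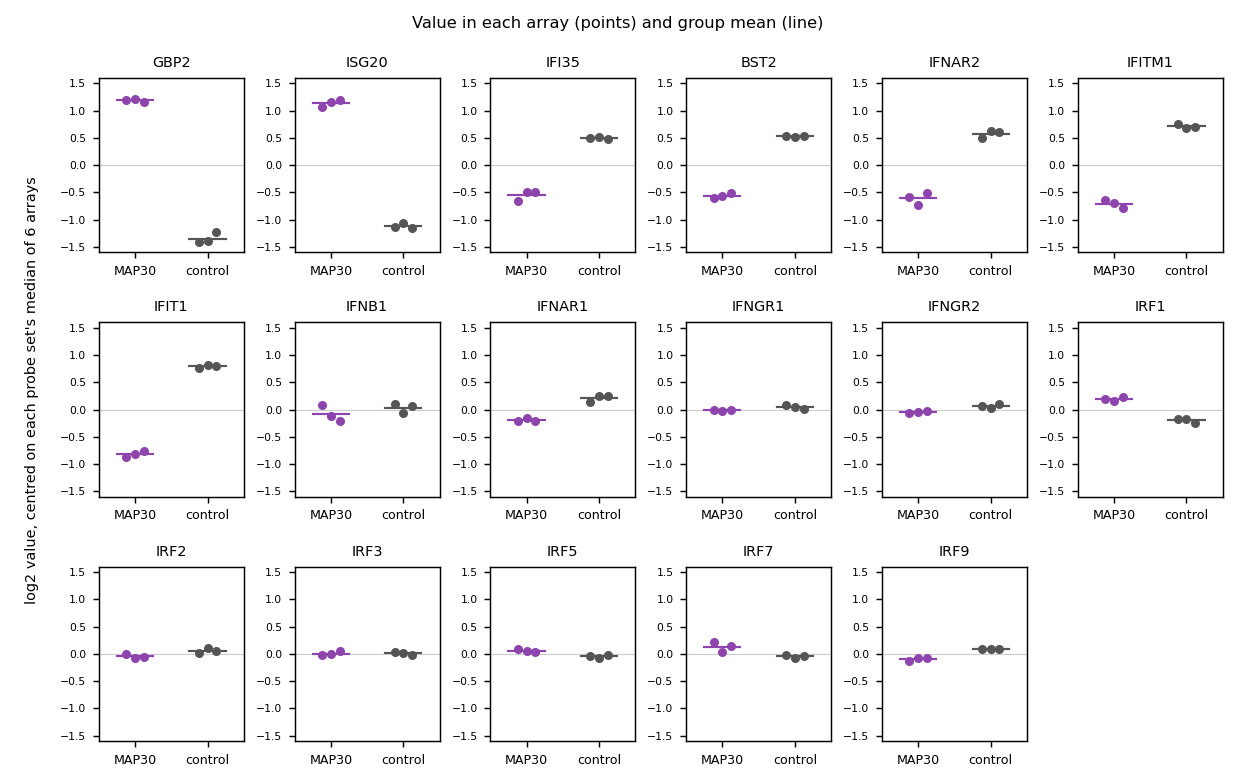
Centred log2 value of each array (points) and group mean (lines), MAP30 left and control right, for the 7 genes called with at least a 2-fold change and for IFNB1, the interferon receptors and the IRFs. The groups are widely separated in the first 7 panels, while in IFNB1 and IRF3 they overlap.

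The IFIT genes, whose proteins bind viral RNA and block its translation, went opposite ways within the family. IFIT1 had -0.88, -0.82 and -0.77 with MAP30, against 0.77, 0.81 and 0.80 in control arrays. These groups were the most widely separated among the genes that fell, with a log2 fold change of -1.61 ± 0.04 (limma adjusted p = 4.88e-08). IFIT3, which stabilises IFIT1 in complexes, had -0.36, -0.41 and -0.33 with MAP30, against 0.39, 0.33 and 0.35, and fell 1.65-fold. IFIT2, which is also known to promote apoptosis, had 0.36, 0.34 and 0.41 with MAP30, against -0.34, -0.33 and -0.36, and rose 1.64-fold. IFIT5, a cytosolic RNA binder, rose by less, 1.3-fold. In IFIT2 and IFIT5 both probe sets of the gene rose, and IFIT1 and IFIT3 were each measured by 1 probe set. That of IFIT3 is of class _x_at, some of whose probes match related transcripts.

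The membrane restriction factors all fell. IFITM1 had -0.63, -0.68 and -0.79 with MAP30, against 0.76, 0.69 and 0.70 in control arrays, a log2 fold change of -1.42 ± 0.05. BST2, or tetherin, which holds budding virus at the cell surface, had -0.60, -0.56 and -0.52 with MAP30, against 0.54, 0.52 and 0.54, and fell 2.13-fold with 3 of 4 probe sets lower. IFITM2 and IFITM3, which act mainly in endosomes, fell 1.93-fold and 1.62-fold. No array of either group overlapped the other in these 4 genes. IFITM2 and IFITM3 were measured by probe sets of class _x_at alone, some of whose probes match related transcripts, so the values of these close relatives may not be independent.

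ISG15, a ubiquitin-like protein that is attached to other proteins, rose while HERC5 and HERC6 fell. ISG15 had 0.18, 0.27 and 0.32 with MAP30, against -0.18, -0.27 and -0.25 in control arrays, and rose 1.41-fold (limma adjusted p = 4.78e-05). Its 1 probe set is of class _s_at, which can match related transcripts. HERC5, the main human ligase that attaches ISG15, had -0.26, -0.22 and -0.27 with MAP30, against 0.38, 0.22 and 0.29, and fell 1.46-fold. HERC6, a relative of HERC5, fell by 0.23 on the log2 scale. UBE2L6, the conjugating enzyme of the same pathway and not in the set, fell 3.73-fold, and UBA7, its activating enzyme, fell 1.7-fold. UBE2L6 and UBA7 were each measured by 1 probe set. That of UBE2L6 is not of class _at or _a_at and can match related transcripts. TRIM25, which is also known as an ISG15 ligase, rose 1.33-fold, with 1 probe set higher and 1 lower. UBA7 and TRIM25 were chosen after their values were seen.

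Enzymes that sense, cut or edit nucleic acids were mixed. ISG20, an exonuclease that degrades single-stranded RNA, had 1.06, 1.16 and 1.19 with MAP30, against -1.13, -1.06 and -1.15 in control arrays. Its log2 fold change of 2.25 ± 0.05 (limma adjusted p = 2.21e-08) came from 1 probe set. OASL, an OAS-like protein without synthetase activity, had 0.39, 0.41 and 0.46 with MAP30, against -0.39, -0.52 and -0.52, and rose 1.87-fold. Its 1 probe set is of class _x_at, some of whose probes match related transcripts. The 2-5A synthetases that activate RNase L did not follow OASL: OAS1 fell 1.32-fold and OAS2 1.39-fold, and no array overlapped between groups in either. SAMHD1, which depletes nucleotides, had -0.50, -0.41 and -0.52 with MAP30, against 0.52, 0.47 and 0.46 in control arrays. It fell 1.95-fold in all 4 probe sets, and ADAR, which edits double-stranded RNA, fell 1.48-fold in all 6.

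OAS3 was not called at -0.15 ± 0.07 from its 1 unshared probe set (limma adjusted p = 0.0956), and this depended on the annotation. Another 2 probe sets are annotated to both OAS2 and OAS3, and they fell by 1.86 and 2.27 on the log2 scale. With them added, OAS3 was called lower at -1.43, and OAS2 stood at -0.93 in place of -0.48. With the median over probe sets in place of the mean, OAS1 stood at -0.24 in place of -0.40. IFIH1, the RNA sensor MDA5, stood at -0.11 and CMPK2, a mitochondrial nucleotide kinase, at -0.10. RSAD2, or viperin, which makes a chain-terminating nucleotide, stood at 0.11. None of these genes was called, though 1 of the 3 probe sets of CMPK2 was lower (-0.26). Without MAP30 replicate 3, OAS3 (-0.21) and IFIH1 (-0.16) were called lower; without MAP30 replicate 2, CMPK2 (-0.12) was called lower and RSAD2 (0.14) higher.

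Among antiviral GTPases GBP2 stood out. It had 1.19, 1.22 and 1.16 with MAP30, against -1.41, -1.39 and -1.23 in control arrays, a log2 fold change of 2.53 ± 0.05 (limma adjusted p = 2.98e-08). Both of its probe sets rose, but by very different amounts, 3.95 and 1.12, and both are of class _s_at, which can match related transcripts. GBP1, its close relative, fell 1.29-fold with 4 of 5 probe sets lower and none higher. When probe sets were limited to classes _at and _a_at, GBP1 rested on 1 probe set and was not called (-0.13). MX1, a dynamin-like GTPase that blocks many RNA viruses, had 0.34, 0.40 and 0.62 with MAP30, against -0.34, -0.40 and -0.36, and rose 1.77-fold. MX2, which blocks HIV among others, had 0.03, 0.13 and 0.09 with MAP30, against -0.33, -0.10 and 0.00 in control arrays. The groups did not overlap, but the difference of 0.22 ± 0.08 missed the threshold (limma adjusted p = 0.0507); it was called higher at 0.30 without control replicate 3.

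The 3 PARP genes fell together. PARP9, which pairs with the ubiquitin ligase DTX3L, had -0.42, -0.48 and -0.60 with MAP30, against 0.54, 0.51 and 0.43 in control arrays. It fell 1.99-fold, PARP14, a mono-ADP-ribosyltransferase, 1.61-fold and PARP12, a relative that localises to stress granules, 1.29-fold. In each of them the 3 MAP30 arrays lay below the 3 control arrays.

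The remaining 8 interferon-inducible genes split. IFI16, a nuclear DNA sensor, had 0.45, 0.48 and 0.43 with MAP30, against -0.49, -0.48 and -0.56 in control arrays, and rose 1.95-fold in all 3 probe sets. EPSTI1, a gene first described in epithelial-stromal contact, rose 1.48-fold. IFI35, which binds the related protein NMI, had -0.65, -0.48 and -0.50 with MAP30, against 0.50, 0.52 and 0.48, and fell 2.06-fold. IFI6, a mitochondrial protein with anti-apoptotic activity, fell 1.38-fold and IFI44 1.33-fold; with the median over its 6 probe sets IFI44 stood at -0.25 in place of -0.41. IFI27 stood at 0.01, XAF1, an antagonist of XIAP, at -0.09 and IFI44L at -0.09. They were not called under the deposited scale or without any single array, though 2 of the 7 probe sets of XAF1 were lower.

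Most genes were measured more than once, and no gene of the set had probe sets called in opposite directions. The 47 genes had 125 probe sets, of which 20 were called higher, 60 lower and 45 not called, in a fit over all probe sets in which 26.2% were higher and 30.1% lower. Opposite calls occurred in 0 of the 30 genes with several probe sets, and in 850 of all 11734 genes with several, or 7.24%, so a count of 0 in 30 does not set these genes apart. In 7 of the 30, probe sets lay on both sides of 0, among them IFNAR1 (-0.85 to 0.11) and IRF5 (-0.12 to 0.38). Sizes varied within genes too. PARP14 ranged from -1.40 to -0.14 over 6 probe sets, OAS1 from -1.04 to -0.12 over 4 and BST2 from -1.45 to -0.15 over 4. The other 17 genes rested on a single probe set. No probe set of class _at or _a_at was present for 9 genes: IFIT3, IFITM2, IFITM3, ISG15, OASL, GBP2, PARP12, IFI16 and IFI27. Their probe sets, of class _x_at or _s_at, can match related transcripts.

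**Figure D3:**
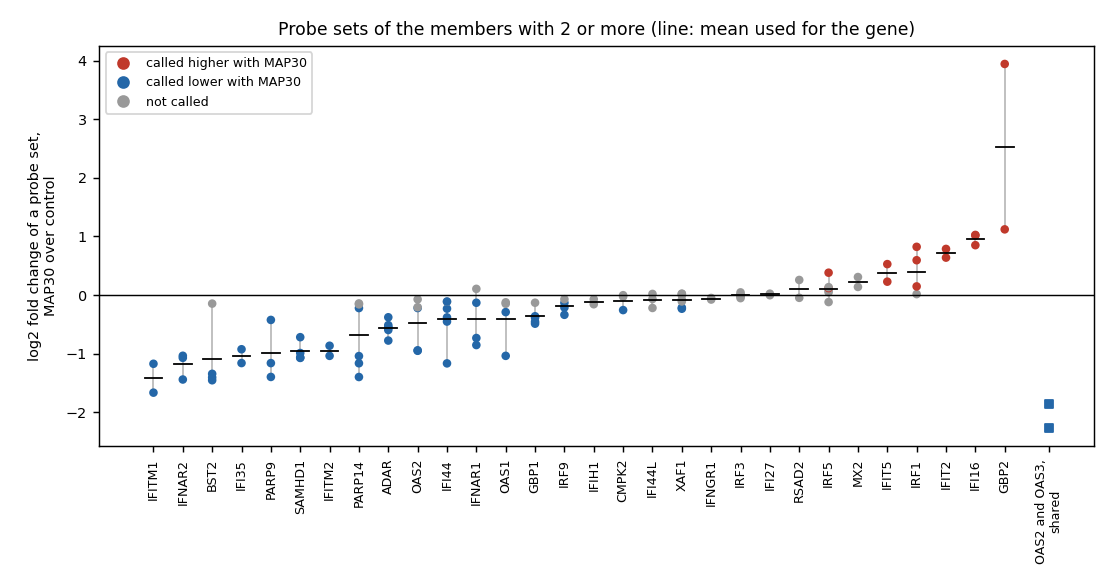
Log2 fold change of each probe set (points) for the 30 genes with 2 or more, ordered by the gene's mean (black line), and of the 2 probe sets shared by OAS2 and OAS3 (squares). The probe sets of GBP2 lie at 3.95 and 1.12, and those shared by OAS2 and OAS3 at -1.86 and -2.27.

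Several of these genes lie side by side in tandem families, and neighbours did not always move together. Over 12 pairs of adjacent protein-coding genes in which both belong to the set, 4 pairs were called in the same direction, 3 in opposite directions, and in 5 pairs 1 or both genes were not called. Such a count over all adjacent genes was not made, so these counts have no background. Of all genes 26.9% were higher and 30.6% lower. The pairs that parted were IFIT2 (0.71) and IFIT3 (-0.73), IFIT1 (-1.61) and IFIT5 (0.38) on chromosome 10, and GBP1 (-0.36) and GBP2 (2.53) on chromosome 1. The 3 IFITM genes on chromosome 11 fell together, as did HERC5 and HERC6 on chromosome 4. On chromosome 21 the receptor genes follow each other as IFNAR2 (-1.18), IL10RB (-0.96), IFNAR1 (-0.40) and IFNGR2 (-0.12), and all 4 were lower. With the arrays centred on poly-A controls, as described below, IFNGR2 (0.05) and HERC6 (-0.07) lost their calls. The call of IFNGR2 was also lost in some fits that left out 1 array, as given above. IL10RB, which is not in the set, encodes a shared chain of the interferon lambda and interleukin 10 receptors. Both of its probe sets were lower, but neither is of class _at or _a_at, so they can match related transcripts.

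**Figure D4:**
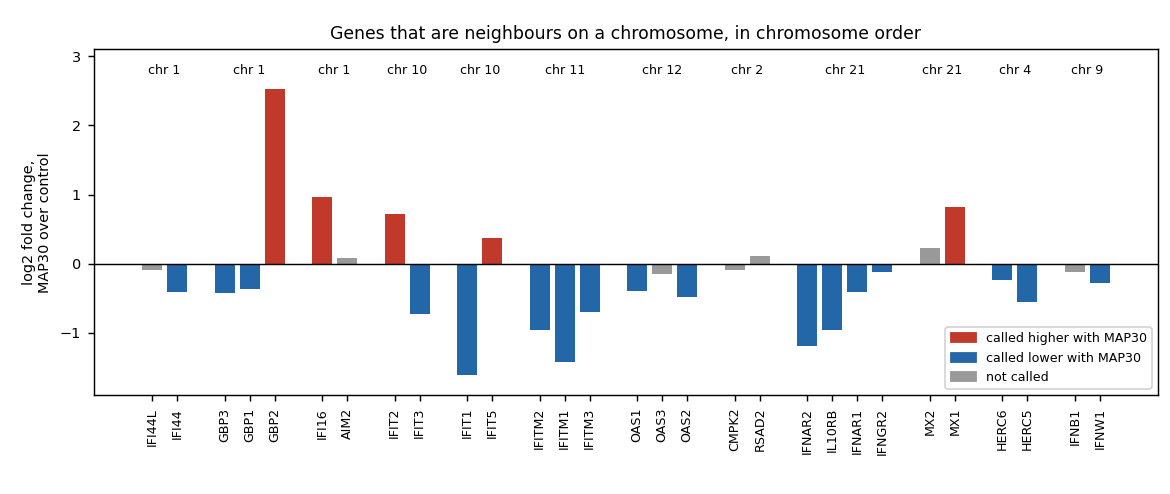
Log2 fold change of genes that are adjacent among protein-coding genes on a chromosome, in chromosome order, with at least 1 gene of each pair from the set; GBP3, AIM2, IL10RB and IFNW1 are not in it. Bars of IFIT2 and IFIT3, of IFIT1 and IFIT5, and of GBP1 and GBP2 point in opposite directions, and the 3 IFITM bars all point down.

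Among interferon pathway genes outside the set more fell than rose. Of 90 measured, 24 rose, 47 fell and 19 were not called, beside 26.9% higher and 30.6% lower of all genes, and their median log2 fold change was -0.12. With the arrays centred on poly-A controls, a scaling described below, 33 were higher and 32 lower, beside 49.1% higher and 20.7% lower of all genes. In the signalling and feedback list 6 of 13 rose and 5 fell. Counts of single lists, here and below, are on the deposited scale alone, where 26.9% of all genes were higher and 30.6% lower. SOCS3, a feedback inhibitor of JAK kinases, rose 2.44-fold, PTPN1, a phosphatase that acts on JAK2 and TYK2, 1.98-fold and IRF2BP2, a corepressor of IRF2, 2.07-fold. TYK2, the kinase bound to IFNAR1, fell 1.6-fold, and JAK1, the kinase bound to IFNAR2, 1.17-fold; with poly-A-control centring JAK1 was not called (-0.06).

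Of the sensors and their adaptors 6 of 17 were higher and 6 lower, beside 26.9% and 30.6% of all genes. TLR3, the endosomal receptor of double-stranded RNA, fell 2.56-fold, while TICAM1, its adaptor, rose 2.08-fold. MAVS, the mitochondrial adaptor of RNA sensors, fell 1.99-fold in all 7 probe sets, and TRAF6, a ubiquitin ligase of Toll-like receptor signalling, rose 1.97-fold. RIGI, a cytosolic RNA sensor, fell 1.14-fold and was not called with poly-A-control centring (-0.02). Among further antiviral effectors 21 of 31 fell and 6 rose. LGALS3BP, a secreted glycoprotein, fell 2.45-fold. Its 1 probe set is not of class _at or _a_at and can match related transcripts. SLFN11, a tRNA-cleaving factor, fell 2.44-fold and EIF2AK2, the kinase PKR that is activated by double-stranded RNA, 1.78-fold. DDX60, a helicase that assists RNA sensors, rose 2.39-fold.

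Of the targets typical of interferon gamma 12 of 19 fell and 4 rose, beside 30.6% and 26.9% of all genes. IDO1, which degrades tryptophan, fell 2.15-fold, PSMB9, an immunoproteasome subunit, 1.71-fold and the peptide transporter gene TAP1 1.47-fold, while NLRC5, the activator of class I antigen presentation genes, rose 1.78-fold. Of the other interferon, IRF and receptor genes 2 of 10 rose, IFNE at 0.45 and IFNL1 at 0.36. Another 3 fell, IL10RB at -0.96, IFNW1 at -0.27 and IFNG, the interferon gamma gene, at -0.10. IFNG passed narrowly (limma adjusted p = 0.0422), and its 1 probe set was not called in the fit over all probe sets. IFNW1 was not called without MAP30 replicate 1 (-0.20) or 3 (-0.26), without control replicate 2 (-0.23) or 3 (-0.28), or with poly-A-control centring (-0.11). IFNL1 was not called with hybridization-control centring (0.15), nor IFNE without control replicate 1 (0.41).

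Markers of other cells did not move as sets. The counts below stand beside 26.9% higher and 30.6% lower of all genes. Of 10 measured leukocyte markers 4 were higher, ITGAM (2.76), LCP1 (1.40), CD68 (0.45) and MS4A1 (0.11), and 2 lower, CORO1A (-0.78) and CD14 (-0.26). MS4A1 lost its call when MAP30 replicate 1, 2 or 3 or control replicate 1 or 2 was left out (0.09 to 0.12), and CD14 with poly-A-control centring (-0.10). The other measured leukocyte markers, PTPRC (0.03), CD3E (0.00), CD3D (0.05) and NKG7 (0.04), were not called. Of 3 plasmacytoid dendritic cell markers TCF4 (0.18) was higher, with 7 probe sets higher and 3 lower, and of 9 fibroblast and endothelial markers COL1A1 (0.14), which lost its call without MAP30 replicate 2 or 3 or control replicate 1 or 2 (0.12 to 0.14). Of 4 epithelial markers EPCAM (0.96) was higher and KRT8 (-0.47) lower. Because levels were removed, the absence of other cells could not be checked, and the part of these markers in the differences was not tested.

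The split between rises and falls depended on how arrays were scaled. Centring on control probe sets shifts every gene by the same amount and leaves the order of the genes as it was, whereas quantile normalization can change it. Hybridization controls are labelled RNAs added before hybridization, and poly-A controls are RNAs added before amplification. Centring on the hybridization controls, from 18 probe sets, moved the median of all genes to -0.23, and gave 10 higher and 33 lower of the 47. Centring on the poly-A set, from 24 probe sets, moved that median to 0.14, and gave 17 higher and 20 lower. With hybridization-control centring 21.3% of the set was higher and 70.2% lower, close to the 17% and 63.7% of all genes. With poly-A-control centring 36.2% of the set was higher and 42.6% lower, beside 49.1% and 20.7% of all genes. IRF5 (-0.10) and IRF7 (-0.04) were not higher with hybridization-control centring, and IFNGR2 (0.05), IRF9 (-0.02) and HERC6 (-0.07) lost their calls with poly-A-control centring. The other 30 called genes had the same call with both and with quantile normalization, IFNAR1, IFNAR2, IRF1 and the IFIT, IFITM and PARP genes among them.

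**Figure D5:**
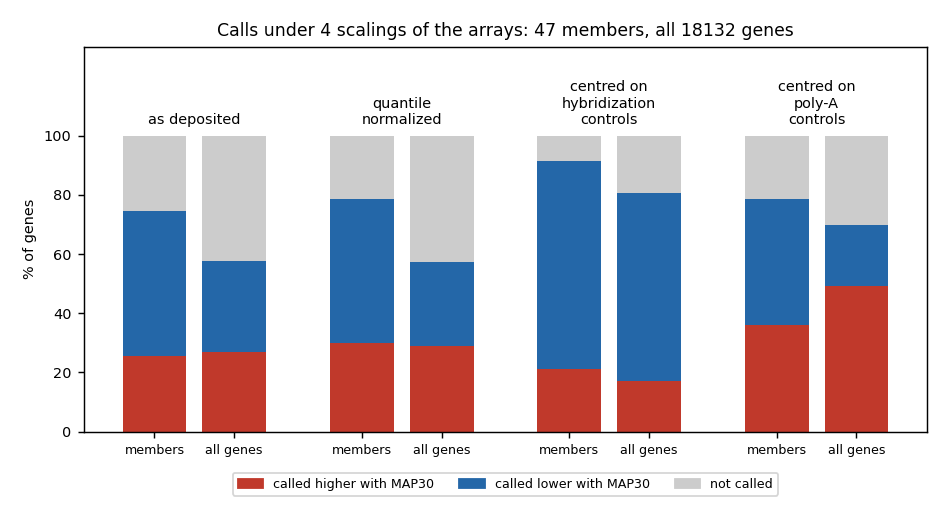
Share of the 47 genes of the set (left bar of each pair) and of all 18132 genes (right bar) called higher, called lower or not called, in percent, under 4 scalings of the arrays. As deposited, quantile normalized, and centred on hybridization and on poly-A controls, 48.9%, 48.9%, 70.2% and 42.6% of the set was called lower. Among all genes these shares were 30.6%, 28.5%, 63.7% and 20.7%, so set and background are close with hybridization-control centring.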

How the data were processed

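Biotin-labelled RNA of 6 samples, made with a 3' in vitro transcription kit, was hybridized to Affymetrix arrays, per the labels' protocols. The deposited table holds log2 expression values of 49395 probe sets; RMA and MAS5 appear, without a stated role, in the submitters' processing notes. No source used here gives the base of the logarithm, which was taken as 2. In the deposited values the median of every probe set over the 6 arrays is 0 within 5.0e-07, so levels, filters on dim probes and floors could not be used. Precision is limited by having 3 arrays per group.

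By the platform's annotation 44988 probe sets had 1 gene, 1832 had several and 102 were controls. Probe sets with 1 gene were averaged for each gene. All 47 measured symbols were found in the reference gene table. MAP30 was compared with control by limma 3.58.1 (R 4.3.3; lmFit, eBayes), two-sided, with Benjamini-Hochberg adjustment over all 18132 genes, and separately over all probe sets. No array or gene was left out. The fit was tested on simulated data. Tables and figures used Python 3.11.15, pandas 2.3.3, numpy 2.4.6, scipy 1.17.1 and matplotlib 3.10.9.

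The members, the pathway and marker lists and the tests were chosen with earlier results of these data known. Values per array are given for members called with at least a 2-fold change and for receptors, IFNB1 and IRFs, and for further members where a family is described. Pathway genes named are the up to 4 with the largest change that passed in each list, and RIGI, EIF2AK2 and DDX60 in any case. UBA7, JAK1 and the other genes outside this rule were named after their values were seen. The alternatives were the median over probe sets, restriction to the probe set classes _at and _a_at, probe sets of several genes added, quantile normalization, centring on either set of spiked controls, array weights, a replicate block and leaving out each array. No source used here gives slides or scan dates.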

Additional observations from a re-analysis of the deposited data

How the results depend on the processing

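Over 14 alternatives, 29 of the 35 called genes of the set had the same call wherever they were tested; the others were IFNGR2, IRF5, IRF7, IRF9, HERC6 and GBP1. None of the 12 genes that were not called stayed so under every alternative. No called gene changed sign when 1 array was left out; of those not called, IRF3 and IFI27, both near 0, did. With 1 array left out, 10 to 12 genes were higher and 22 to 25 lower, beside 25.1% to 26.3% and 28.6% to 30.1% of all genes. The median of the set then lay between -0.16 and -0.12. That median was -0.0923 with quantile normalization, -0.33 when centred on hybridization controls and 0.0465 when centred on poly-A controls, beside medians of all genes of 0.0047, -0.23 and 0.14; uniform shifts move it by construction. With hybridization-control centring IRF5 (-0.10), IRF7 (-0.0389), IFI27 (-0.20), RSAD2 (-0.10), MS4A1 (-0.10), TCF4 (-0.0311) and COL1A1 (-0.0643) turned below 0. With poly-A-control centring IFNGR1 (0.10) and IRF3 (0.16) turned above 0 and were called higher. Without a call, IFNGR2 (0.0470) and IFNB1, IRF2, OAS3, IFIH1, CMPK2, IFI44L and XAF1 (0.0172 to 0.0782) also turned above 0 there. With the replicate number as a block (replicate block) 12 genes were higher and 23 lower, beside 26.7% and 30.2% of all genes. There MX2 gained a call and IRF5 lost it. Same-numbered arrays did not deviate together (correlations of -0.040, 0.070 and 0.011 over all genes), so the numbers were not taken as pairs. Pathway genes outside the set were 33 higher and 32 lower of 90 on the poly-A scale (all genes 49.1% and 20.7%), and 17 higher and 63 lower on the hybridization scale (all genes 17% and 63.7%). Restricted to classes _at and _a_at, 38 genes of the set were tested. Of these 8 were higher and 18 lower, beside 26.1% and 28.9% of all genes. Levels were removed by the authors' centring, so signal over background limits these values to an unknown degree. Filters on dim probes were not run.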
